A study of Mus musculus with 2 samples.

Results

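Mitochondrial complex I, the NADH dehydrogenase of the respiratory chain, was examined through the nuclear genes that encode its subunits and a family of its assembly factors. Members were all protein-coding genes of the deposited expression table whose symbols start with Ndufa, Ndufb, Ndufc, Ndufs or Ndufv. This gave 46 genes of the 20330 identifiers in the table, and 40 of the 46 had a value of at least 1 FPKM (a fragment count scaled to transcript length and library size) in at least 1 library. The other 6 were Ndufa4l2, Ndufab1, Ndufaf3, Ndufaf4, Ndufaf5 and Ndufaf6.

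The study sequenced poly(A) RNA of adipose tissue macrophages (ATM), the macrophages of fat, to ask how loss of HIF-1α alters them. The cells were sorted with F4/80 and CD11b antibodies from visceral fat of C57BL/6 mice after 12 weeks of high-fat diet, and the age of the mice is not in the labels. The KO mice were hMRP8cre+;Hif-1αfl/fl;ApoE-/-, and the WT mice were hMRP8cre-;Hif-1αfl/fl;ApoE-/-. By these labels both genotypes lacked ApoE and carried the loxP-flanked Hif-1α alleles, and they differed in Cre recombinase, which the human MRP8 (S100A8) promoter drives in myeloid cells, neutrophils included. There was 1 library per genotype, and whether it came from 1 animal or a pool is not stated. No difference between the libraries therefore has a replicate check, no test was run, and the values describe these libraries and not the genotypes.

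Complex I takes electrons from NADH, passes them through a flavin and a chain of iron-sulphur clusters to ubiquinone, and pumps protons across the inner mitochondrial membrane. Its matrix arm has an N module, where NADH is oxidised, and a Q module, where ubiquinone is reduced. Its membrane arm has a proximal part, next to the matrix arm, and a distal part, and both hold mitochondrially encoded pump subunits surrounded by accessory subunits. The core subunits do the chemistry and are shared with bacteria, while the accessory subunits stabilise the complex. HIF-1 is known to shift cells in low oxygen from respiration towards glycolysis.

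FPKM summed to 585823 in WT and 568329 in KO, and the smallest recurring step in the low values put the depth at about 5860000 and 7470000 fragments. The targeted gene, Hif1a, was at 30.4 FPKM in WT against 20.97 in KO. This value covers the whole gene, and the deleted part was not analysed here. Apoe, labelled as knocked out in both genotypes, was listed at 94.3 and 117 FPKM. This whole-gene value does not show whether the transcript is intact, so it does not check the ApoE-/- label. Macrophage markers, 12 of 13 of which were in the table, summed to 15726 FPKM in WT against 15232 in KO. The highest were C1qb, at 4726 and 4663 FPKM, and Lyz2, at 3936 and 4080. Of the 12, 6 were lower and 6 higher in KO, where 48.7% and 51.3% of all genes compared were. Of the sort markers, Adgre1, which encodes F4/80, was at 299 and 239 FPKM, and Itgam, which encodes CD11b, at 127.9 and 127.7. Fcgr1 was lower in KO, at 49.3 and 21.9 FPKM, and Mertk was higher, at 38.0 and 88.1. All 7 neutrophil markers that passed the filter, of 10 in the table, were higher in KO, where 51.3% of all genes compared were. Of these, Mpo, Ngp and Retnlg were below 1 FPKM in WT and passed through KO alone, so the filter set their direction. The 10 summed to 158 FPKM in WT against 523 in KO. Most of this was S100a8, at 73.3 and 182 FPKM, and S100a9, at 63.4 and 301. Csf3r was at 15.5 and 24.1 FPKM and Cxcr2 at 5.83 and 7.96. Ltf, Camp and Elane were at 0 in both. Summed levels in WT and KO were 113 and 120 FPKM for 8 adipocyte markers, most of it Fabp4, at 90.1 and 91.4 FPKM. Of the 5 that passed the filter 4 were higher in KO, where 51.3% of all genes compared were. Cfd, at 0 and 7.11 FPKM, and Lep, at 0 and 1.60, passed through KO alone. Cidec, at 5.83 and 0 FPKM, passed through WT alone, so the filter set the direction of Cfd, Lep and Cidec. Lipe, which passed beside Fabp4, was at 16.8 and 20.1 FPKM, and Adipoq and Plin1 were at 0 in both. Summed levels were 15.96 and 11.96 FPKM for 7 brown adipocyte markers, of which Ucp1 was at 8.34 and 11.96, Cox7a1 at 7.62 and 0, and the other 5, Cidea and Prdm16 among them, at 0 in both. They were 43.2 and 84.3 FPKM for 6 fibroblast markers. The other lists summed to 6.50 and 33.1 FPKM (eosinophil), 5.35 and 2.07 (T cell), 2.75 and 6.46 (B cell), 125 and 140 (dendritic cell), 18.4 and 16.1 (endothelial) and 0 and 7.84 (mesothelial). Siglecf and Epx, Cd3e and Cd8a, Pax5, Clec9a, and Msln and Wt1 were at 0 in both libraries. Other markers of these lists were higher in KO, with Alox15 at 6.50 and 25.7 FPKM, and Ccr3, Cd79b, Zbtb46 and Upk3b listed at 0 in WT but at 7.45, 5.52, 9.45 and 7.84 FPKM in KO. Lower in KO were Cd79a, at 2.50 and 0.222 FPKM, Xcr1, at 1.65 and 0.0588, and Cd4, at 5.35 and 2.07. Of 5 endothelial markers, 2 were lower in KO and 3 were higher. The lower were Tie1, at 4.12 FPKM in WT and listed at 0 in KO, and Vwf, at 1.03 and 0.116. The part of any of these cells in the values below was not tested. In such bulk samples, fewer cells of a type and less RNA per cell cannot be told apart.

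Most complex I subunit genes were lower in KO than in WT. Of the 35 subunit genes that could be compared, 23 were lower in KO and 12 were higher, where 48.7% and 51.3% of all genes compared were. The median change, taken as log2(FPKM + 1) in KO minus that in WT, was -0.93, against 0.03 over all 10297 genes compared. Subunit FPKM summed to 3181 in WT, which was 0.543% of all FPKM, and to 2011 in KO, which was 0.354%. Of the 7 nuclear-encoded core subunits, 3 were lower and 4 higher, with changes from -1.21 to 1.56. Their median change was 0.99, and they summed to 220 FPKM in WT against 284 in KO. The 28 accessory subunits compared had a median change of -1.08. Of these, 20 were lower, with sums of 2961 FPKM in WT and 1727 in KO over the 29 in the table. The difference between core and accessory subunits was not tested.

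**Figure D1:**
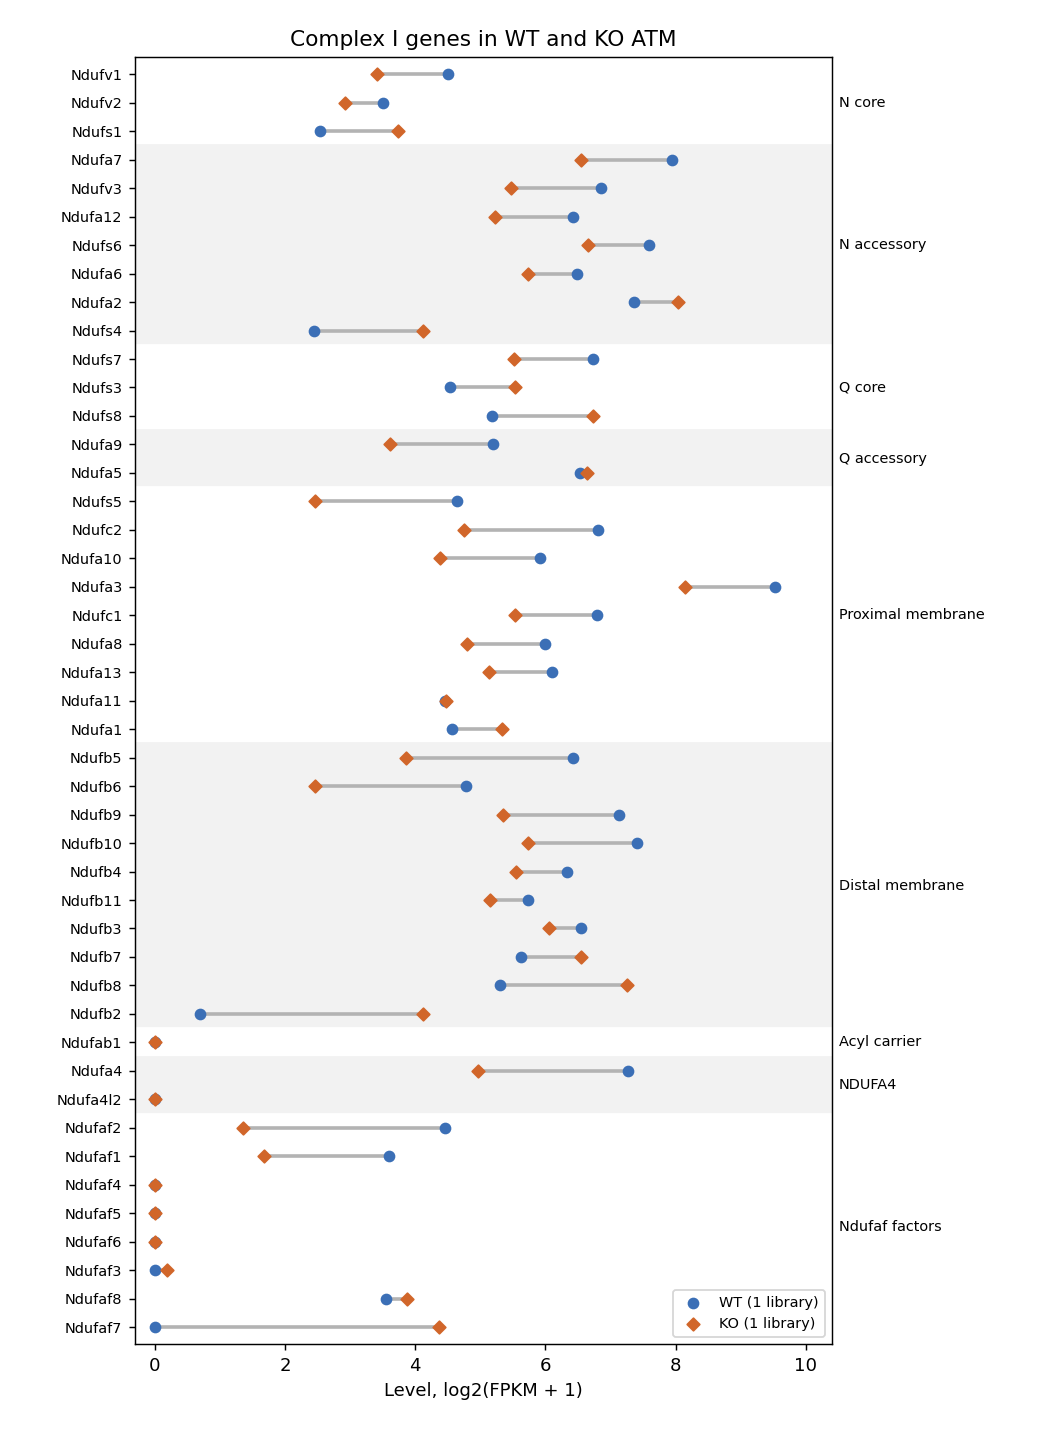
Level of complex I genes, as log2(FPKM + 1), in the WT library (circles) and the KO library (diamonds), grouped by module. Each point is 1 library, the grey line joins the pair, and most accessory subunits lie further left in KO while Ndufs1, Ndufs3 and Ndufs8 lie further right.

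At a 3-fold difference on the log2(FPKM + 1) scale, 9 of the 40 members compared were lower in KO, where 13.7% of all genes compared were, and 4 were higher, where 13.6% were. Of the higher members, Ndufb2 and Ndufaf7 passed the filter through KO alone, and 2 were left where 1 FPKM was required in each library. The lower members were Ndufb5, Ndufb6, Ndufb9, Ndufb10, Ndufc2, Ndufs5, Ndufa4, Ndufaf1 and Ndufaf2, and the higher members were Ndufb2, Ndufb8, Ndufs4 and Ndufaf7. At 2-fold, 19 members were lower, against 22.5% of all genes, and 7 were higher, against 23.1%. The share of all genes past 3-fold depended strongly on the level. Of the 18 members at a mean of 50 to 200 FPKM, 4 were lower by 3-fold, while 3.23% of all 1021 genes in that range were. In the same range, 14 of the 18 members were lower by any amount, against 50.7% of all genes, and 1 was higher by 3-fold, against 1.08%. Of the 9 members at 20 to 50 FPKM, 5 were lower, against 48.6%, 1 by 3-fold, against 6.43%, and 0 were higher by 3-fold, against 5.26%. Of the 11 members at a mean of 5 to 20 FPKM, 6 were lower, against 48.2% of all genes. By 3-fold 4 were lower and 3 were higher, Ndufb2 and Ndufaf7 among them, where 13.3% and 13.2% of all genes were. Members just short of the threshold were Ndufa9, Ndufs8 and Ndufa10, at -1.58, 1.56 and -1.53. Those just past it were Ndufb10 and Ndufs4, at -1.67 and 1.67. By the FPKM ratio without a pseudocount, Ndufa9 was 3.17 times and Ndufa10 2.98 times as high in WT as in KO. With the trend of change with length removed, 8 members were lower and 6 higher by 3-fold.

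**Figure D2:**
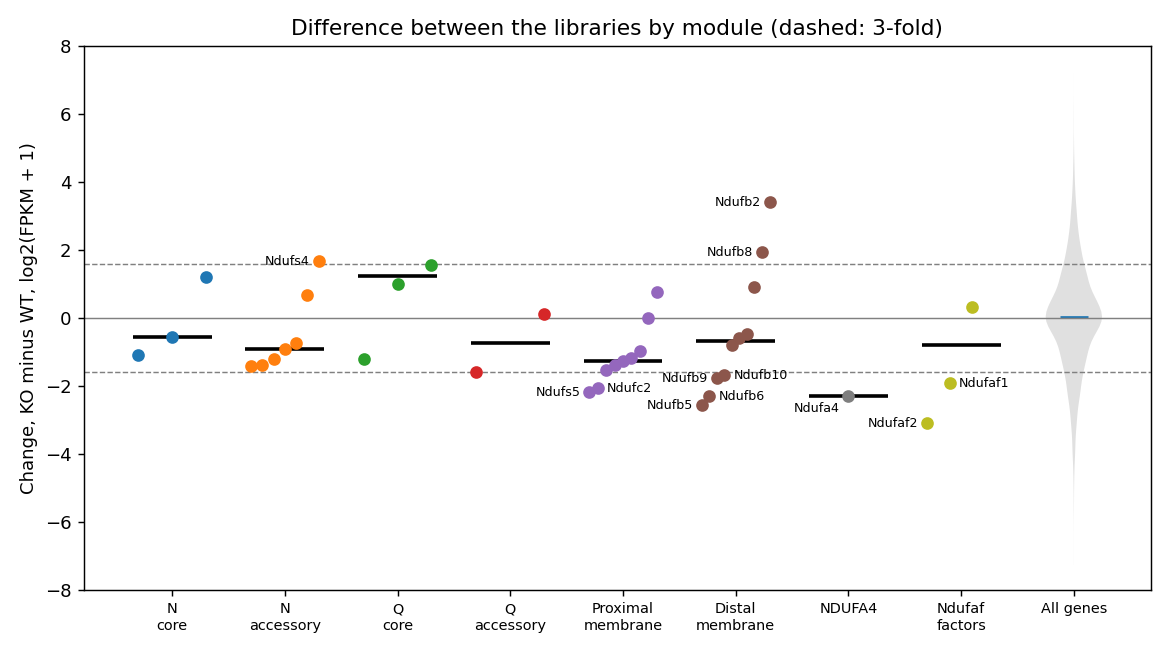
Change of complex I genes that passed the filter, KO minus WT on the log2(FPKM + 1) scale, by module. Points are genes, bars are module medians (that of the Ndufaf factors counts Ndufaf7, which has no point because it was listed at 0 in WT), dashed lines mark 3-fold, and the grey shape shows all 10297 genes compared with their median of 0.03; the median is 1.24 for the Q core and -1.26 for the proximal membrane arm.

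The N module, where electrons enter, was lower in KO for 7 of its 10 members, against 48.7% of all genes compared, with a median change of -0.83. Its catalytic centre is formed by Ndufv1, which binds the flavin and oxidises NADH, and by its partner Ndufv2, which carries an iron-sulphur cluster. Ndufv1 was at 21.8 FPKM in WT against 9.67 in KO, a change of -1.09. Ndufv2 was at 10.3 and 6.59 FPKM, a change of -0.58. The third core subunit of the module, Ndufs1, which carries further iron-sulphur clusters, went the other way. It was at 4.82 FPKM in WT against 12.3 in KO, a change of 1.20. Exons of Ndufs1 overlap those of the opposite-strand gene Eef1b2, which was at 47.3 and 90.5 FPKM, and the overlap's part in the Ndufs1 values was not tested.

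Accessory subunits of the N module were among the most abundant complex I transcripts. Ndufa7 was at 246 FPKM in WT against 92.5 in KO, a change of -1.40. Ndufv3 was at 115 and 43.5 FPKM, a change of -1.38. Ndufa12 was at 84.5 and 36.2 FPKM, a change of -1.20. These 3 genes were thus lower in KO by similar amounts. Ndufs6, which contributes a zinc-binding subunit, was at 191 FPKM in WT against 99.99 in KO, a change of -0.93. Ndufa6, a member of the LYR protein family that binds the acyl carrier protein, was at 88.2 and 52.4 FPKM, a change of -0.74. A pair of accessory subunits was higher in KO. Ndufa2, which has a thioredoxin-like fold, was at 164 FPKM in WT against 261 in KO, a change of 0.67. Ndufs4, whose loss causes a severe mitochondrial encephalopathy in mice, was at 4.46 FPKM in WT against 16.4 in KO, a change of 1.67. Of the 10 N module genes it was the only one past 3-fold, where 13.6% of all genes compared were higher and 13.7% lower by 3-fold.

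In the Q module 4 of 6 genes were higher in KO, against 51.3% of all genes compared, and the median change was 0.55. Its 4 core subunits lead electrons to ubiquinone, and 3 of them were higher in KO. Ndufs8, which carries iron-sulphur clusters, was at 35.2 FPKM in WT against 105 in KO, a change of 1.56. Ndufs3 was at 22.2 and 45.2 FPKM, a change of 0.99. By the FPKM ratio, Ndufs8 was 2.998 times and Ndufs3 2.03 times as high in KO as in WT. Ndufs7, which holds the last iron-sulphur cluster before ubiquinone, was instead at 105 FPKM in WT against 44.7 in KO, a change of -1.21. Of the accessory pair, Ndufa5 was nearly level, at 91.0 and 98.8 FPKM, a change of 0.12. Ndufa9, which has a nucleotide-binding fold and sits where the arms meet, was at 35.7 FPKM in WT against 11.3 in KO, a change of -1.58.

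In the proximal membrane arm 7 of 9 members were lower in KO, against 48.7% of all genes compared, and the median change was -1.26, the lowest of the 4 modules. Ndufa3, a small membrane subunit, was the most abundant complex I transcript in both libraries, at 735 FPKM in WT against 283 in KO, a change of -1.37. Ndufs5, a subunit of the intermembrane space face, was at 23.9 and 4.48 FPKM, a change of -2.19. Ndufc2, which lies beside the pump subunit ND2, was at 111 and 25.8 FPKM, a change of -2.06. Of the 9 members of this arm, Ndufs5 and Ndufc2 were past 3-fold, both lower in KO, where 13.7% of all genes compared were. Ndufa10, a nucleoside kinase relative, was at 59.1 FPKM in WT against 19.9 in KO, a change of -1.53. Ndufc1 was at 109.996 and 45.5 FPKM, a change of -1.26. Ndufa8, an intermembrane space subunit with disulphide-bonded cysteines, was at 62.6 and 26.8 FPKM, a change of -1.19. Ndufa13, also known as GRIM-19, was at 67.5 and 34.02 FPKM, a change of -0.97. The remaining pair was not lower. Ndufa11 was at 21.03 FPKM in WT against 21.1 in KO, a change of 0.00 whose sign turned with the scaling. Ndufa1, an X-linked subunit needed for assembly, was at 22.6 and 39.1 FPKM, a change of 0.77.

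The distal membrane arm held both the subunit furthest below WT and the one furthest above it, and its median change was -0.68. Of its 10 members 7 were lower in KO, against 48.7% of all genes compared. Ndufb5 was at 84.5 FPKM in WT against 13.5 in KO, a change of -2.56, the lowest of any subunit. Ndufb6 was at 26.4 and 4.52 FPKM, a change of -2.31. Ndufb9, another LYR protein, was at 139 and 39.8 FPKM, a change of -1.77. Ndufb10, an intermembrane space subunit, was at 168 and 52.3 FPKM, a change of -1.67. These 4 genes were lower past 3-fold, where 13.7% of all genes compared were. Ndufb8 and Ndufb2, given below, were past 3-fold the other way, where 13.6% were. Smaller differences were those of Ndufb4, at 79.5 FPKM in WT against 45.7 in KO, with a change of -0.79. Ndufb11, the other X-linked subunit, was at 52.1 and 34.6 FPKM, a change of -0.58. Ndufb3 was at 92.4 and 65.6 FPKM, a change of -0.49. A group of 3 genes was higher in KO. Ndufb8, often used as an antibody target for assembled complex I, was at 38.5 FPKM in WT against 151 in KO, a change of 1.94. Ndufb7 was at 48.2 and 92.2 FPKM, a change of 0.92. Ndufb2 was at 0.618 FPKM in WT against 16.3 in KO, a change of 3.42 from a WT value below the filter of 1 FPKM, and of 4.70 with a pseudocount of 0.01. The membrane arm as a whole had 14 of 19 members lower and a median of -1.19, and the matrix arm 9 of 16 and -0.66, where 48.7% of all genes were lower. The difference between the arms was not tested.

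Some members were listed at 0 in both libraries. Ndufab1, the mitochondrial acyl carrier protein that is part of complex I and of fatty acid synthesis in mitochondria, was one of them. Cells with mitochondria use it throughout, so the value is given as listed and is not read as absence. Ndufa4l2, a relative of Ndufa4 that HIF-1 is known to induce in low oxygen and that restrains complex I, was also at 0 in both libraries and could not be compared. Ndufa4 itself, named for complex I but now counted as a complex IV subunit, was at 153 FPKM in WT against 30.2 in KO, a change of -2.31.

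The 8 assembly factors of the Ndufaf family summed to 42.8 FPKM in WT against 37.3 in KO. Only 4 could be compared, 2 lower and 2 higher, where 48.7% and 51.3% of all genes compared were, with a median change of -0.80 that counts Ndufaf7, listed at 0 in WT. This median was -1.92 where 1 FPKM was required in each library and 0.00 with no filter. Ndufaf1, part of the complex that builds the membrane arm, was at 11.1 FPKM in WT against 2.201 in KO, a change of -1.92. Ndufaf2, a late assembly factor related in sequence to Ndufa12, was at 20.9 and 1.57 FPKM, a change of -3.09, and of -3.73 with a pseudocount of 0.01. Both were past 3-fold, against 13.7% of all genes compared, and the KO value of Ndufaf2 rested on an estimated 6.52 fragments. Ndufaf8, which works with Ndufaf5, was at 10.7 FPKM in WT against 13.7 in KO, a change of 0.33. Ndufaf7, a methyltransferase, was listed at 0 in WT but at 19.7 FPKM in KO, and is counted as higher with no fold given. Ndufaf3 was listed at 0 and 0.144 FPKM, and Ndufaf4, Ndufaf5 and Ndufaf6, which act on the Q module and its neighbours, were at 0 in both.

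Other assembly factors were compared from a list of 15 genes, of which 14 were in the table and 8 passed the filter. Of these 8, 6 were higher in KO and 2 were lower, where 51.3% and 48.7% of all genes compared were, with a median change of 0.55. Tmem126b, Timmdc1, Ecsit and Acad9 join or work with Ndufaf1 in building the membrane arm. Tmem126b was listed at 0 in WT but at 27.5 FPKM in KO, and Timmdc1 at 0 and 10.996 FPKM. Ecsit was at 4.26 FPKM in WT and listed at 0 in KO, and Acad9 was at 3.03 and 2.56 FPKM. All but Acad9 were thus listed at 0 in a library and passed the filter through the other library alone. Foxred1 was at 10.2 and 14.2 FPKM, and Dmac1 at 26.5 and 41.6 FPKM. None of the 7 mitochondrially encoded ND subunits was found in the table by symbol, so they could not be compared. Ndufb1 was not analysed here.

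The order of the complex I transcripts differed between the libraries. After Ndufa3, the highest members in WT were Ndufa7, Ndufs6, Ndufb10 and Ndufa2, in that order. In KO, Ndufa3 was followed by Ndufa2, Ndufb8, Ndufs8 and Ndufs6. Ndufb8 thus stood 23rd of the 46 members in WT and 3rd in KO, and Ndufs8 stood 25th and 4th. Ndufa4 went from 6th in WT to 23rd in KO. Over the 34 subunits that reached 1 FPKM in WT and in KO, Pearson's r of log2 FPKM was 0.619 and Spearman's rho was 0.558. Over all 7586 such genes, r was 0.837 and rho was 0.786. These are correlations across genes of a single pair of libraries, and genes are not independent replicates. The spread of subunit levels was alike in the libraries, with an SD of 1.55 log2 units in WT and 1.48 in KO. Over all genes it was wider, at 2.06 and 2.02. The correlations of subunits and of all genes were thus taken over different spreads, and their difference was not tested.

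**Figure D3:**
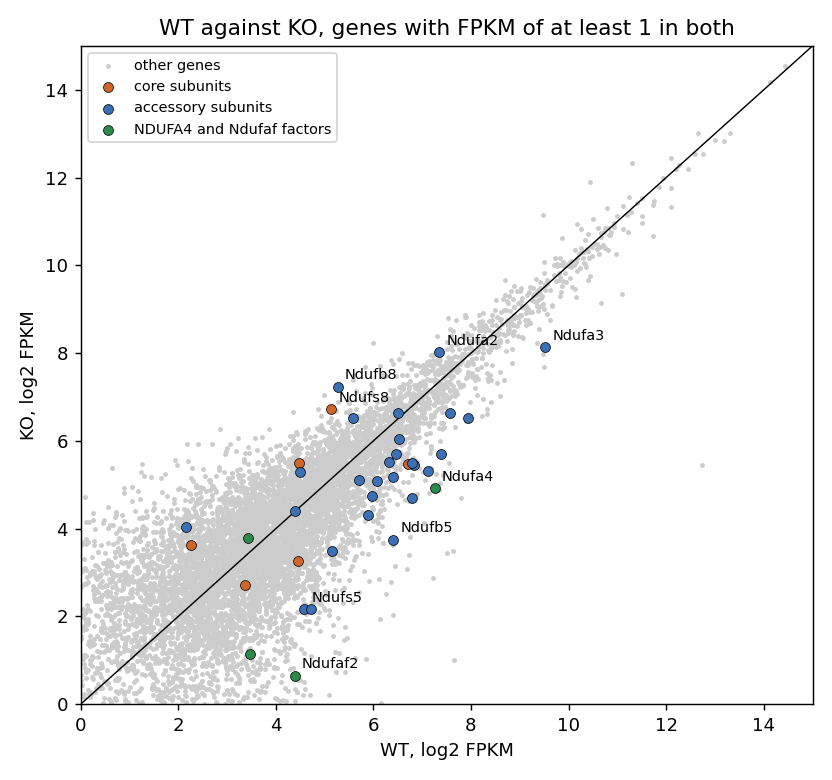
KO against WT log2 FPKM for genes that reached 1 FPKM in WT and in KO, with the line of equality. Each point is a gene in 1 pair of libraries; accessory subunits lie mostly below the line, and the core subunit Ndufs8 lies above it.

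Complex I transcripts are short, which bears on FPKM values because a short transcript yields few fragments at a given level. The 34 subunits that reached 1 FPKM in both had a median annotated length of 677.5 nt, against 2138 nt for the 7466 genes with a length. Of 20 subunits under 800 nt, 13 were lower in KO, with a median change of -1.09. Of 15 subunits of 800 nt or more, 10 were lower, with a median of -0.79. All genes of these lengths had medians of -0.06 and 0.04, and 53.4% and 48.3% of them were lower. Across the 34 subunits Spearman's rho between length and change was 0.089, given as a description. Removing the trend of change with length over all genes left the subunit median at -0.79. Lengths are medians over annotated coding transcripts, which include partial ones, as for Ndufs1 with 651 nt.

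**Figure D4:**
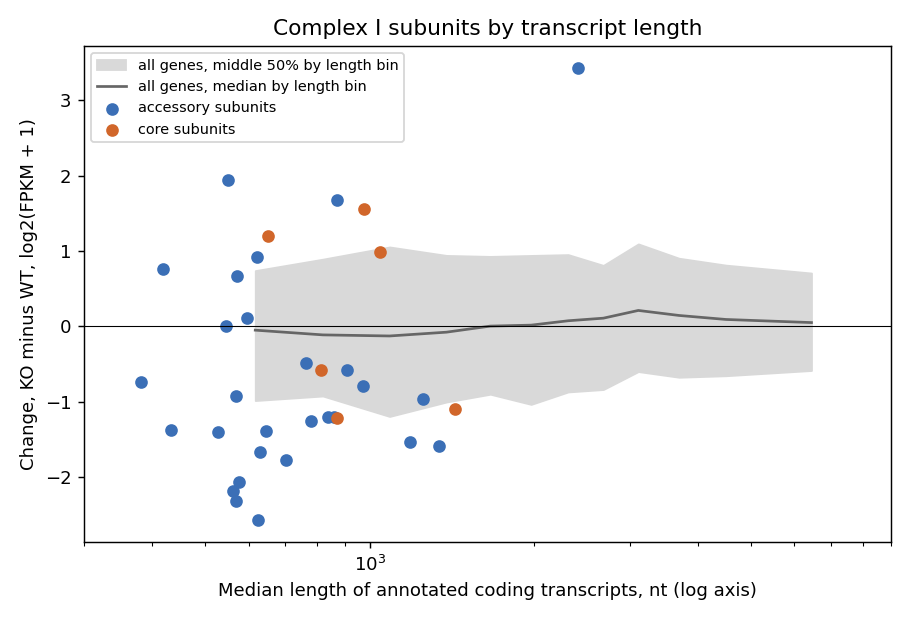
Change of complex I subunits on the log2(FPKM + 1) scale against transcript length on a log axis. Points are genes, the grey line and band are the median and middle 50% of all genes in bins of length, and subunits under 800 nt, with a median of -1.09, lie mostly below the line.

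Overlapping and duplicated sequence could also affect single members. Exons of 16 members overlap those of another coding gene in the annotation, and whether the counting used strand is not given in the sources used here. A partner's 0 may be a failed estimate and does not show that a member is free of its reads. Tfpt, opposite to Ndufa3, was at 0.703 FPKM in the WT library and 0 in the KO library. Rbm10, opposite to Ndufb11, was at 8.54 and 0.5001 FPKM. Mrpl47, opposite to Ndufb5, and Tmco6, opposite to Ndufa2, were listed at 0 in both, as was Tssk6, opposite to Ndufa13. Vmac, opposite to Ndufa11, was at 0 and 9.45 FPKM, Kbtbd4, opposite to Ndufs3, at 0.0713 and 0, Mrpl36, opposite to Ndufs6, at 5.58 and 5.18, and Braf, opposite to Ndufb2, at 3.21 and 2.93. Higher partners, beside Eef1b2, were Impdh2, opposite to Ndufaf3, at 50.3 and 32.8 FPKM, and Shmt2, opposite to Ndufa4l2, at 20.8 and 6.56. Ndufb2, Ndufb8 and Ndufb9 each overlap a gene model of the same strand (Gm42420, Gm20538 and Gm49356), whose levels were not analysed here. A copy with at least 95% identity over at least 50% of the transcript was found for Ndufs3 (Gm12251, 98.6% identity) and for Ndufb11 (Gm6444, 96.9%), so reads of these genes could be split.

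Promoters of members were searched for letters known from regulators of oxygen response and respiration. A RefSeq promoter on GRCm38.p6 was found for 40 of the 46 members, giving 42 promoters, and the 250 bases before the start were read on both strands. The HIF core letters ACGTG or GCGTG were present in 18 of the 42, or 42.9%, against 56.1% of 10384 promoters of coding genes that passed the filter and 38.6% of all 32851. They were present in 9 of 26 promoters of members lower in KO and in 7 of 12 of members higher in KO. The exact NRF-1 palindrome, for a regulator of nuclear genes of respiration, was in 2 of the 42, or 4.76%, against 1.68% of promoters of the genes that passed. The ETS letters CCGGAAG were in 5, or 11.9%, against 13.8%. The YY1 letters AAGATGGCG were in 0 of the 42, against 1.25%. A match describes the sequence and is not evidence of binding, and no match says only that the letters are not in this window.

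The promoters below, written 5′ to 3′ on the gene's strand with matches in capitals, are those of the subunits with the lowest and the highest change at 1 FPKM or more in both libraries, of the member with the most HIF core matches, and of the subunit with the NRF-1 palindrome. Ndufb5 (chr3:32736813-32737062, plus strand) and Ndufb8 (chr19:44555443-44555692, minus strand) have no match to any of the motifs. Ndufa7 (chr17:33824322-33824571, plus strand) has 5 HIF core matches, of which the adjoining pair in CACGTG overlaps. Ndufa11 (chr17:56717512-56717761, plus strand) has the NRF-1 palindrome and 1 HIF core match.
Ndufb5: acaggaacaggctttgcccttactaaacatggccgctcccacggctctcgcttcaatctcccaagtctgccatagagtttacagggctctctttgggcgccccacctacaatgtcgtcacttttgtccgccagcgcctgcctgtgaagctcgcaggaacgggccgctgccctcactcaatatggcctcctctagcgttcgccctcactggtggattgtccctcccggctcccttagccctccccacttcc
Ndufb8: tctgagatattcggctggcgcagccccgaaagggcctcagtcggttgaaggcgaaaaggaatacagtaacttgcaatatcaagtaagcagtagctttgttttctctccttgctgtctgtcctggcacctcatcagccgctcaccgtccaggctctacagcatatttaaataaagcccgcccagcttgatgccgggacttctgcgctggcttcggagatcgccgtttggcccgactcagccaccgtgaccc
Ndufa7: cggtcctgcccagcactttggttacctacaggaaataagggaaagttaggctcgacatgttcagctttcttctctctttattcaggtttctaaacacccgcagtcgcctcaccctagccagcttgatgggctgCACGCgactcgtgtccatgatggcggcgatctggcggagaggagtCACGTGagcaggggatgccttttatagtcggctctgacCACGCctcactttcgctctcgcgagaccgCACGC
Ndufa11: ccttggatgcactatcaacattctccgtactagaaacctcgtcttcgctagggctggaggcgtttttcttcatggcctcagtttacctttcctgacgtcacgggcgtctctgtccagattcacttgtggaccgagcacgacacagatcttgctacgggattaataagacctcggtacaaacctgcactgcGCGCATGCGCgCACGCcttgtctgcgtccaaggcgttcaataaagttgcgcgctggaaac

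Across these promoters the genes with the lowest and the highest change were alike in lacking all 4 sets of letters. Ndufa7, with the most HIF core matches, was lower in KO, and Ndufa11, with 1 match, was nearly level. Among promoters of compared members, the HIF core letters were in 9 of 26 of lower members and 7 of 12 of higher members. Ndufa7, lower in KO, and Ndufa5, higher in KO, each entered these counts with more than 1 promoter, all with matches. The difference between lower and higher members was not tested.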

How the data were processed

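RNA of sorted ATM was sequenced from 1 WT and 1 KO library. The authors deposited a single table of FPKM values per Ensembl gene and library. The submitters' processing notes name CASAVA 1.8.2, TopHat2 2.0.9, Cufflinks 2.2.1 and mm9. The annotation, filters and strand setting are not given in the sources used here. The column headed mut was assigned to the KO sample because the remaining column is headed WT. Of 20749 rows, 401 full repeats were dropped and 18 further rows were summed with another row of their identifier. Symbols (98.5% of identifiers), lengths and overlaps came from GENCODE M21 on GRCm38.

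Change was log2(FPKM + 1), KO minus WT, without rescaling, for genes that reached 1 FPKM in either library. The pseudocount of 1 understates changes of low genes. FPKM values are no counts, so no count model was used. Exact zeros may be failed estimates. Depth was estimated from the smallest recurring FPKM x kb in genes with a single annotated transcript, 0.171 in WT (18 genes) and 0.134 in KO (20 genes), and covers counting error only. Scripts (Python 3.11.15, pandas 2.3.3, statsmodels 0.14.6) were tested on simulated data. Any member could be named, and other genes came from the lists in the text or overlap members. The members and lists were chosen with earlier results of these data known. Alternatives were pseudocounts of 0.1 and 0.01, other filters, scalings, a 2-fold threshold, removal of the length trend and keeping the largest row per identifier. A member is not reported singly here or drawn in the figures, though group counts and medians include it.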

Additional observations from a re-analysis of the deposited data

How the results depend on the processing

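The median change of the complex I subunits lay between -0.95 and -0.79 over the alternatives, the latter with the length trend removed. The number of members lower by 3-fold lay between 8 and 10 except with a 2-fold threshold, where 19 were lower and 7 higher. Requiring 1 FPKM in WT and in KO left 2 higher members, because Ndufb2 and Ndufaf7 were below it in WT. With the length trend removed, 8 members were lower and 6 higher. Requiring 1 FPKM in both moved the Ndufaf median to -1.92 over fewer genes, and with no filter that median was 0.00, since genes listed at 0 in both libraries enter. Of 439 recomputed values for single genes and modules, 433 moved by less than 1.5-fold, an allowance used because no replicate spread exists. A filter cannot alter the change of a single gene, and a scaling shifts all genes by nearly the same amount. The count of 433 is therefore largely fixed by the choice of alternatives and is no measure of stability. The 6 that moved more were those of Ndufb2, Ndufaf2 and Ndufaf7 with smaller pseudocounts and the median of Ndufa4 and Ndufa4l2 with no filter. Of all 439 values only that of Ndufa11 changed sign, to -0.00081 when scaled to the same upper quartile. No paired analysis was possible because there is a single library per genotype, and for the same reason no replicate could be left out.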

Other observations

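In complex II and complex IV most subunits were lower in KO, and in complex III most were higher. All 4 complex II subunits were lower in KO, with the largest difference for Sdha, at 27.1 FPKM in WT against 4.94 in KO. Of 9 complex III subunits, 6 were higher, but the largest difference was that of Uqcrb, lower at 133.6 and 34.5 FPKM, and the largest of the 6 was that of Uqcrc2, at 10.6 and 27.8 FPKM. For complex IV, 8 of 11 were lower, Ndufa4 not counted, with the largest difference among the 11 for Cox5b, at 297 and 95.4 FPKM. For ATP synthase 9 of 14 were lower, with a median change of -0.16 and the largest difference for Atp5k, at 721 and 205 FPKM. The 9 include Atp5d and Atp5e, which were nearly level, with changes of -0.015 and -0.002. Over all genes compared, 48.7% were lower in KO. The differences between complexes were not tested.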
